A study of Mus musculus with 15 samples.

Results

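The hmTOP-seq samples of 500 ng DNA that were labelled with BGT were compared with the control samples of the same input that were taken through the procedure without BGT. The samples were chosen by the DNA input and the letter K or R in their titles, which do not spell the letters out. K was read as control and R as labelled from the series text and the read totals, which gave 2 labelled samples and 2 controls, 4 of the 15 samples of the series. hmTOP-seq counts reads at CG dinucleotides that carry 5-hydroxymethylcytosine (5hmC), and the series also held labelled samples and controls of 50 and 5 ng and 3 uTOP-seq samples of 300 ng, which count reads at unmodified CGs (uCG). All DNA came from the mouse embryonic stem cell line E14TG2a, grown on gelatin with LIF and serum. The replicates are technical replicates of 1 cell line, so every test across them measures the spread of the procedure and not that of cell cultures.

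5hmC is made from 5-methylcytosine by the TET enzymes and is an intermediate of DNA demethylation. BGT, a glucosyltransferase of a bacteriophage, moves a sugar that carries a chemical handle onto 5hmC, an oligonucleotide is attached to the handle, and a polymerase starts a strand from that oligonucleotide on the genomic DNA beside it. Reads of a control without BGT therefore come from DNA in which this handle was not put on 5hmC, and they give the background against which the labelled counts can be read.

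Some of the CGs that both controls had read are shown first. They were chosen for having reads of separate control samples at the same CG. Each sequence has 12 bases before and after a CG and is written in the direction in which the letters CACACAA stand before the CG, or on the plus strand where they do not. Capitals mark the CG and, where present, the motif CACACAA. The positions in GRCm38 are chr7:28775615-28775640 on the plus strand in an intron of Sirt2, chr17:45371304-45371329 on the plus strand at 20568 bp from Cdc5l, chr5:64149088-64149113 on the plus strand at 7205 bp from Tbc1d1, chr17:84905659-84905684 on the plus strand at 51070 bp from Ppm1b, and chr1:157746648-157746673 on the minus strand at 178235 bp from Sec16b. The last 3 have no such motif and stand for the other CGs: chr2:98667195-98667220 in a coding exon of Gm10800, chr1:171462641-171462666 in an intron of F11r and chr8:76791918-76791943 at 107512 bp from Nr3c2, each on the plus strand.
Sirt2: caCACACAAcaaCGggcatagcaagg
Cdc5l: aaacCACACAAtCGcctgcaaagggg
Tbc1d1: aacCACACAAcaCGacaacaaagaag
Ppm1b: aaacCACACAAaCGccgatctcagtc
Sec16b: CACACAAaggagCGaggccataggaa
Gm10800: cgtgaaatatggCGaggaaaactgaa
F11r: ctttcataagatCGtggatgtgtgtg
Nr3c2: cacacttacactCGctgattcaggcc

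The labelled samples held 32502791 and 31918445 reads, and the controls 10072 and 9348. The reads lay on 6903098 and 7220651 CGs in the labelled samples, which is 32.3% and 33.8% of the 21353092 CGs of chromosomes 1 to 19 and X, and on 6547 and 6293 CGs in the controls, which is 0.0307% and 0.0295%. According to the methods of the study, reads that agreed in start and length had been reduced to 1. The counts carry no molecular identifiers, so reads are not certain to be independent molecules, and every interval here is an exact Clopper-Pearson 95% interval that covers counting error only.

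Control reads were gathered on fewer CGs than labelled reads would be if drawn at random to the same depth. If reads were drawn without replacement from the first labelled sample to the depth of the first control, 10055 CGs would be expected to have a read, and 9334 for the second pair. The controls reached 0.651 and 0.674 of these numbers. The difference lay in CGs with several reads: 1481 and 1326 control CGs had 2 reads, against 17.2 and 13.7 expected from the labelled samples, and 779 and 701 had 3 or more, against 0.0556 and 0.0389. Control CGs with 3 or more reads held 28% and 26% of all control reads. A draw from the far deeper labelled samples seldom keeps several reads of 1 molecule, whereas the controls were counted whole. The comparison therefore does not tell repeated reads of a molecule from separate molecules at a CG, and this was not tested.

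Neighbouring CGs also shared control reads more often. Of the CGs with a read, 2.37% in control 1 and 2.64% in control 2 had another one within 100 bp, against 0.812% and 0.724% expected for the labelled samples at control depth. The values of the controls were higher than those of the labelled samples in both pairs. The 2 loci described further on held 20 and 30 CGs with a read in control 1 and 15 and 41 in control 2. Their part in these values was not tested.

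Over the gene elements, each CG was given to 1 element only, and the share of a sample's reads in each element was compared. CGs over 50 kb from protein-coding genes took 14.0% and 14.1% of labelled reads and 18.3% (17.5 to 19) and 19.3% (18.5 to 20.1) of control reads, a ratio of 1.33 of control over labelled, while they make up 27.1% of all CGs. Coding exons took 10.9% and 10.6% of labelled reads and 7.41% (6.90 to 7.94) and 7.63% (7.10 to 8.18) of control reads, a ratio of 0.702, with 4.80% of all CGs. In both elements the control values lay between the labelled values and the share of all CGs. The groups did not overlap in either element, but with 2 samples against 2 the exact two-sided permutation test cannot give a p below 0.333, so the spread between replicates is the measure here.

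The 3′ UTRs took 2.62% and 2.59% of labelled reads and 1.99% and 2.03% of control reads, a ratio of 0.771. The 5′ UTRs took 1.04% and 1.01% of labelled reads and 1.58% (1.34 to 1.84) and 1.28% (1.07 to 1.53) of control reads, a ratio of 1.40. The 5′ UTRs were thus the genic element in which the controls exceeded both labelled samples, while 3′ UTRs and coding exons were below them. Introns took 44.6% and 44.7% of labelled reads and 44.6% and 44.2% of control reads, a ratio of 0.995. The labelled values of the introns lay inside the intervals of both controls, 43.6 to 45.6 and 43.2 to 45.2, so no difference was detectable there at this depth. The 2 kb upstream and the 2 kb downstream of genes overlapped between the groups, with 2.59% in both labelled samples and 2.87% and 2.2% in the controls upstream, and with 1.88% and 1.89% in the labelled samples and 1.44% and 1.96% in the controls downstream.

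**Figure D1:**
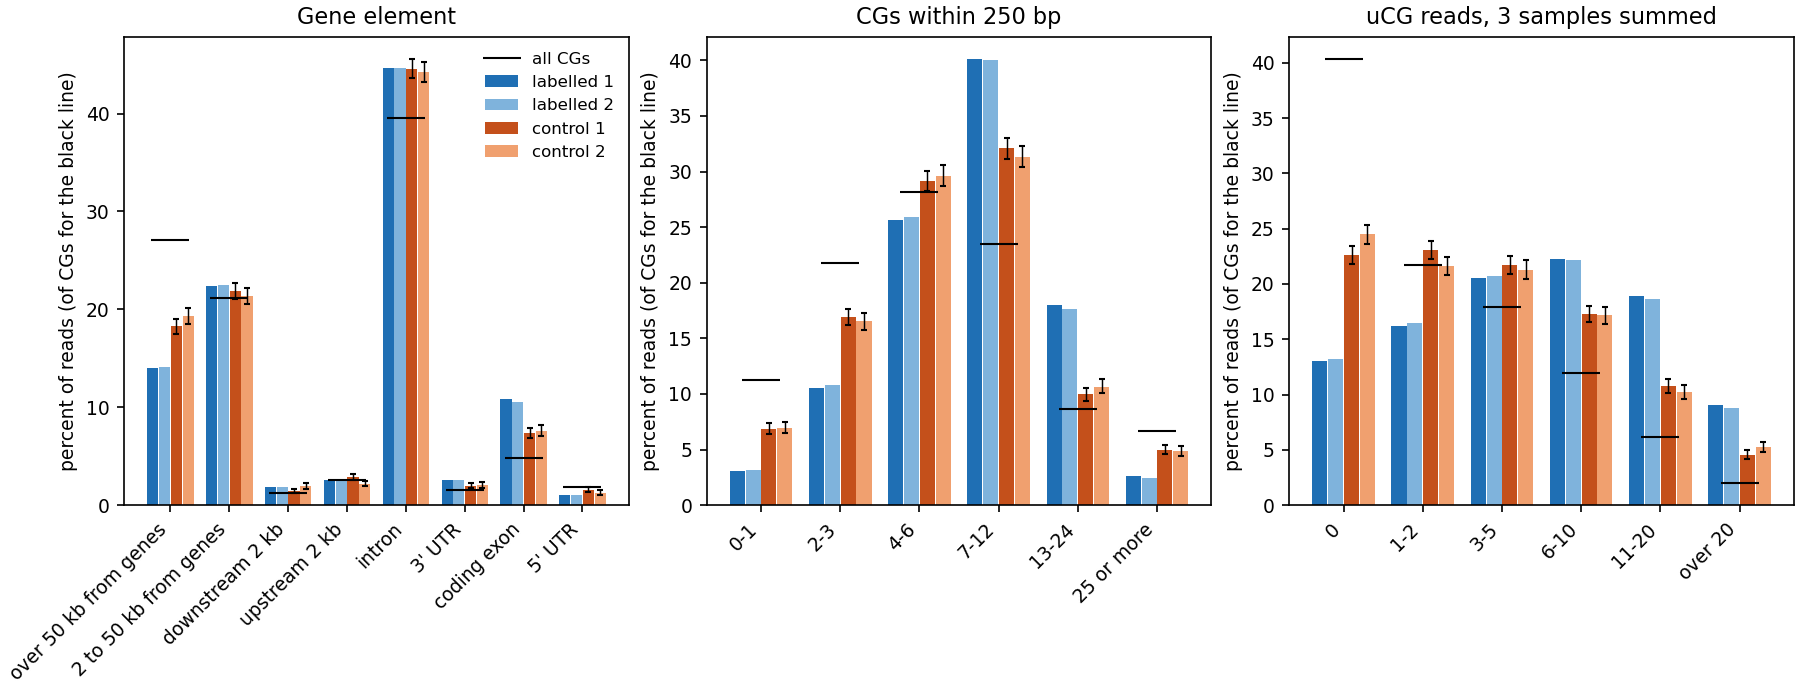
Share of reads in each sample by gene element, by number of CGs within 250 bp and by uCG reads, in percent of the sample's reads; bars are samples, error bars exact 95% intervals of the controls, and black lines the share of all CGs. CGs over 50 kb from genes, CGs with few neighbours and CGs without a uCG read take a larger share in both controls than in both labelled samples.

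The local density of CGs, counted as other CGs within 250 bp, separated the groups in every class. CGs with 0-1 neighbours took 3.05% and 3.14% of labelled reads and 6.86% (6.37 to 7.37) and 6.97% (6.47 to 7.51) of control reads, a ratio of 2.24. The ratio was 1.57 at 2-3 neighbours, 1.14 at 4-6, 0.791 at 7-12 and 0.578 at 13-24. From the lowest density to 13-24 neighbours, control reads were thus increasingly scarce relative to labelled reads. In the densest class, of 25 or more neighbours, the order turned: it took 2.60% and 2.46% of labelled reads and 5.00% (4.59 to 5.45) and 4.89% (4.46 to 5.35) of control reads, a ratio of 1.95. This class holds 6.65% of all CGs, so that both groups had a lower share of reads there than of CGs.

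Element and density were then combined, with the reads summed over bins of at least 10000 CGs and tested with the edgeR quasi-likelihood test on shares of reads. Of 44 bins, 15 (34.1% of those tested) were higher in the controls and 16 (36.4%) lower at a Benjamini-Hochberg adjusted p under 0.05. The bins span all reads on these CGs, so a higher share in some must come with a lower share in others.

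At 25 or more neighbours, the bins at the start of genes were highest in the controls relative to the labelled samples. In 5′ UTRs with 25 or more neighbours there were 63872 and 58761 labelled reads and 91 and 76 control reads, which is 0.197% and 0.184% against 0.903% and 0.813% of reads and a log2 fold of 2.18 ± 0.14 (SE; edgeR adjusted p 7.43e-25). The 2 kb upstream of genes at that density had 55472 and 52269 labelled reads and 78 and 63 control reads, with a log2 fold of 2.12 ± 0.15. Introns at that density had 181925 and 169984 labelled and 146 and 127 control reads, with a log2 fold of 1.36 ± 0.11. Both controls lay above both labelled samples in these 3 bins, and each stayed past the threshold under every scaling, model and leave-one-out alternative tried.

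At lower densities, the bins at the start of genes that passed the threshold were lower in the controls. The 2 kb upstream at 0-1 and 2-3 neighbours did not pass, at log2 folds of 0.48 ± 0.44 and -0.02 ± 0.23. Neither did 5′ UTRs at 4-6, at -0.28 ± 0.34. The log2 fold of 5′ UTRs was -0.87 ± 0.23 at 7-12 neighbours and -0.60 ± 0.21 at 13-24, and that of the 2 kb upstream was -0.69 ± 0.18 at 4-6, -0.39 ± 0.13 at 7-12 and -0.44 ± 0.17 at 13-24. The values of 5′ UTRs at 7-12 and of the 2 kb upstream at 4-6 stayed past the threshold under every such alternative, and the other 3 did not with the replicate block, without labelled 1 or without control 2, nor did those of the 2 kb upstream at 7-12 and 13-24 without labelled 2.

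Coding exons with 25 or more neighbours were lower in the controls as well. They had 344918 and 319261 labelled reads and 88 and 70 control reads, which is 1.06% and 1.0% against 0.874% and 0.749% of reads and a log2 fold of -0.34 ± 0.13 (edgeR adjusted p 0.0149). The difference was small, and without any 1 of the 4 samples it was no longer past the threshold, at log2 folds from -0.46 to -0.24. Within the class of 25 or more neighbours, coding exons held 40.8% and 40.6% of labelled reads and 17.5% and 15.3% of control reads, and 16.5% of the CGs. 5′ UTRs held 7.55% and 7.47% of labelled reads, 18.1% and 16.6% of control reads and 21.9% of the CGs. In this class the distribution of control reads over coding exons and 5′ UTRs was thus closer to that of the CGs than the distribution of labelled reads was.

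Dense CGs far from genes had a weaker footing. Over 50 kb from genes, the densest class had 88239 and 83434 labelled and 55 and 68 control reads and a log2 fold of 1.25 ± 0.15, which dropped to 0.31 without the 2 loci described further on and was then not past the threshold. At 2 to 50 kb from genes the log2 fold was 0.59 ± 0.18, and it was not past the threshold without control 1, at 0.46, or without control 2, at 0.70.

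At 13-24 neighbours the controls were lower in most elements. Coding exons had a log2 fold of -1.05 ± 0.08, 3′ UTRs of -1.17 ± 0.19, introns of -0.71 ± 0.06, and CGs over 50 kb from genes of -0.71 ± 0.11. At 0-1 neighbours the log2 fold was 1.39 ± 0.09 over 50 kb from genes and 1.02 ± 0.09 in introns. From 0-1 to 13-24 neighbours the fold thus fell inside introns as well as over 50 kb from genes.

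**Figure D2:**
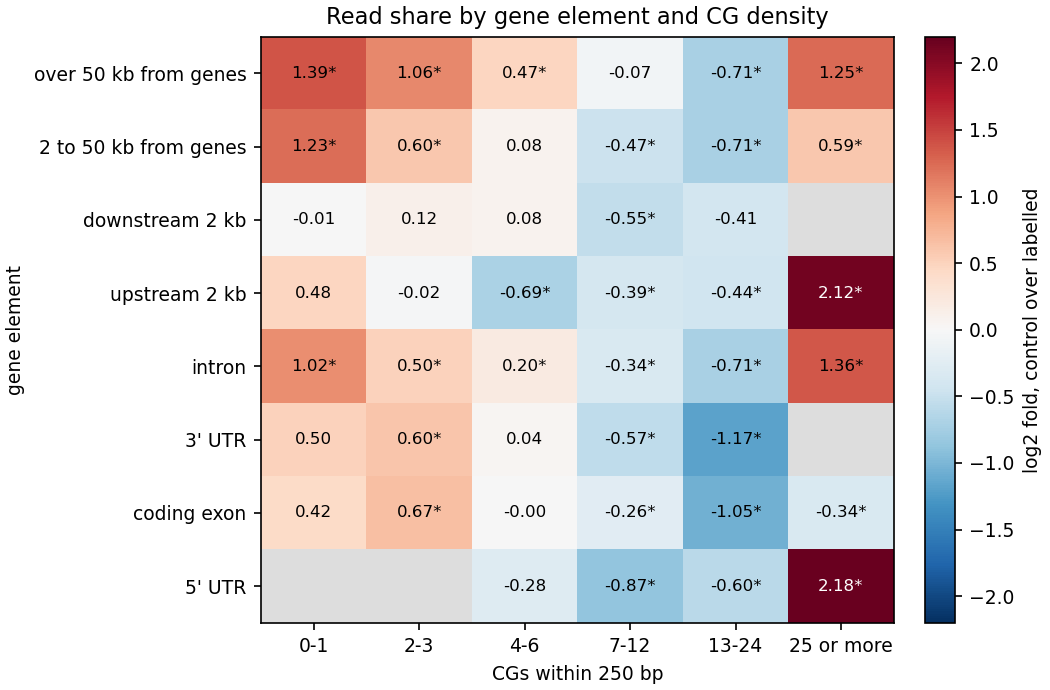
The log2 fold of read shares, control over labelled, in each bin of gene element and number of CGs within 250 bp; stars mark an edgeR adjusted p under 0.05 and grey bins have under 10000 CGs. Values fall from 1.39 at 0-1 neighbours to -0.71 at 13-24 neighbours over 50 kb from genes, and rise to 2.18 in 5′ UTRs with 25 or more neighbours.

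Unmodified CGs were read from the uTOP-seq samples as the sum of their 3 counts at each CG. CGs without a uCG read make up 40.3% of all CGs, and they took 13% and 13.2% of labelled reads and 22.6% (21.8 to 23.4) and 24.5% (23.6 to 25.4) of control reads, a ratio of 1.80. The ratio was 1.37 at 1-2 uCG reads, 1.04 at 3-5, 0.775 at 6-10, 0.560 at 11-20 and 0.548 over 20. Control reads were therefore less concentrated on CGs with uCG reads than labelled reads were, but more than CGs in general: over 20 uCG reads were found at 1.99% of CGs, which took 9.09% and 8.77% of labelled reads and 4.56% and 5.22% of control reads.

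At the CGs with a control read, the median number of uCG reads was 3 in both controls, against 6 and 5 in the labelled samples at control depth and 1 over all CGs. The means were 8.47 and 9.92 for the controls and 9.08 and 8.92 for the labelled samples at control depth. The means depend on the 2 loci described further on, and outside them they were 5.64 and 5.97 for the controls and 8.44 and 8.30 for the labelled samples. No uCG read was found at 23.4% and 24.8% of control CGs, against 13% and 13.2% for the labelled samples at control depth.

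Density and uCG reads move together, so uCG reads were compared within each density class. At 0-1 neighbours the median was 2 in both controls, 4 in both labelled samples at control depth and 1 over all CGs. At 7-12 neighbours it was 3 in both controls and 6 in both labelled samples, and at 13-24 it was 4 and 5 against 7 and 7. In the densest class the medians came together, at 10 and 11 in the controls and 11 in both labelled samples, while the median over all CGs of that class was 2. Dense CGs with a control read and dense CGs with a labelled read were thus alike in their median uCG count, and 8.38% and 7.14% of the former had none, against 9.85% and 9.86% of the latter and 35.3% of all dense CGs.

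The same was tested over 35 bins of uCG reads and density. Of these, 18 (51.4%) were higher and 14 (40%) lower in the controls (edgeR, Benjamini-Hochberg adjusted p under 0.05), but with uCG reads taken only at CGs read in all 3 uTOP-seq samples 9 of 29 bins were higher. CGs without a uCG read and with 0-1 neighbours had 159931 and 165782 labelled reads and 196 and 186 control reads, a log2 fold of 1.96 ± 0.14. CGs with 11-20 uCG reads and 13-24 neighbours had 1322803 and 1267572 labelled reads and 144 and 187 control reads, a log2 fold of -1.24 ± 0.08. Within each density class below 25 neighbours, the fold fell from the lowest uCG class to that of 11-20 uCG reads. For CGs without a uCG read it fell with density too, from 1.57 ± 0.09 at 2-3 neighbours to 0.43 ± 0.05 at 7-12 and -0.06 ± 0.10 at 13-24. The last was not past the threshold, but it was with TMM, at -0.32, and with DESeq2, at -0.23.

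In the densest class the fold followed no such order. There the log2 fold was 0.55 ± 0.23 without a uCG read, 0.70 ± 0.23 at 1-2 uCG reads, 1.31 ± 0.19 at 3-5, 1.12 ± 0.18 at 6-10, 0.83 ± 0.17 at 11-20 and 1.02 ± 0.16 over 20. The first was not past the threshold without any 1 of the 4 samples, at log2 folds from 0.41 to 0.67, or with TMM, at 0.30. The bin of 1-2 uCG reads was not past it without control 1, at 0.40, or without control 2, at 0.93, and the bins of 3 or more uCG reads passed it in each of these cases.

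**Figure D3:**
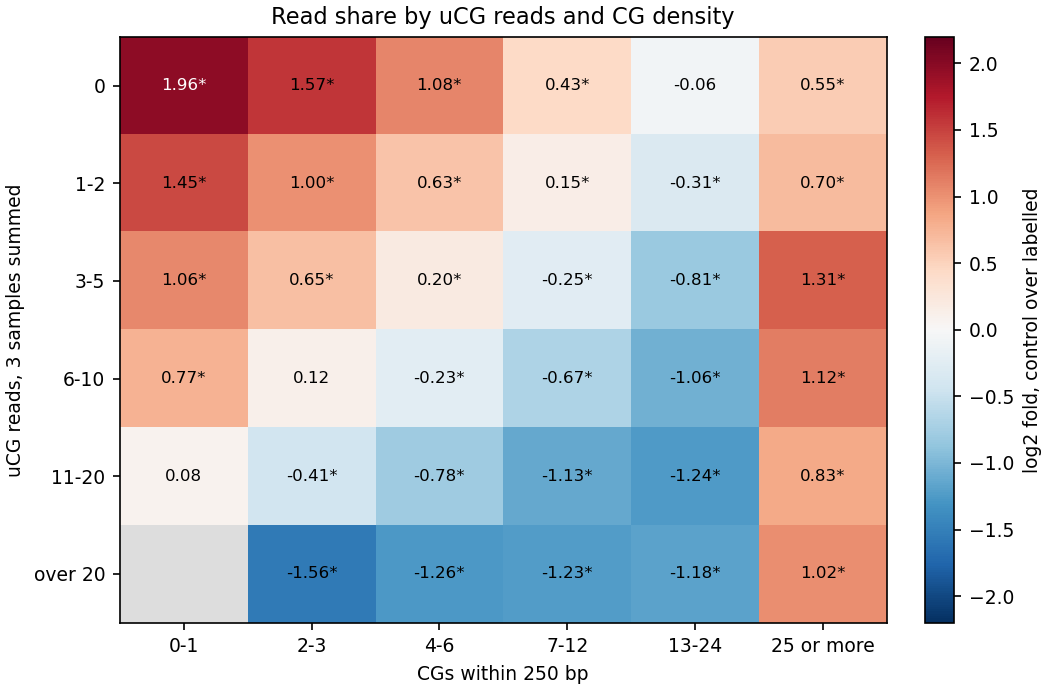
The log2 fold of read shares, control over labelled, in each bin of uCG reads and number of CGs within 250 bp; stars mark an edgeR adjusted p under 0.05 and grey bins have under 10000 CGs. The fold runs from 1.96 at sparse CGs without a uCG read to -1.56 at CGs with over 20 uCG reads and 2-3 neighbours, while the densest class has 0.55 or more in each uCG class shown.

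Control CGs were compared with the labelled reads of the same CG. Labelled sample 1 had a read at 52.5% and 53.3% of the CGs of controls 1 and 2, and labelled sample 2 at 53.6% and 55.0%. The CGs of 1 labelled sample at control depth had a read in the other labelled sample in 86.3% and 84.5% of cases. Control CGs were thus read in a labelled sample more often than all CGs, at 32.3% and 33.8%, and less often than labelled CGs of the same depth. The number of CGs with a control read per 10000 CGs rose from 1.85 and 1.75 where both labelled samples had 0 reads to 8.35 in both controls where they had over 20 together. CGs with 0 labelled reads made up 34.1% and 33.6% of the CGs of controls 1 and 2, and 56.5% of all CGs.

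**Figure D4:**
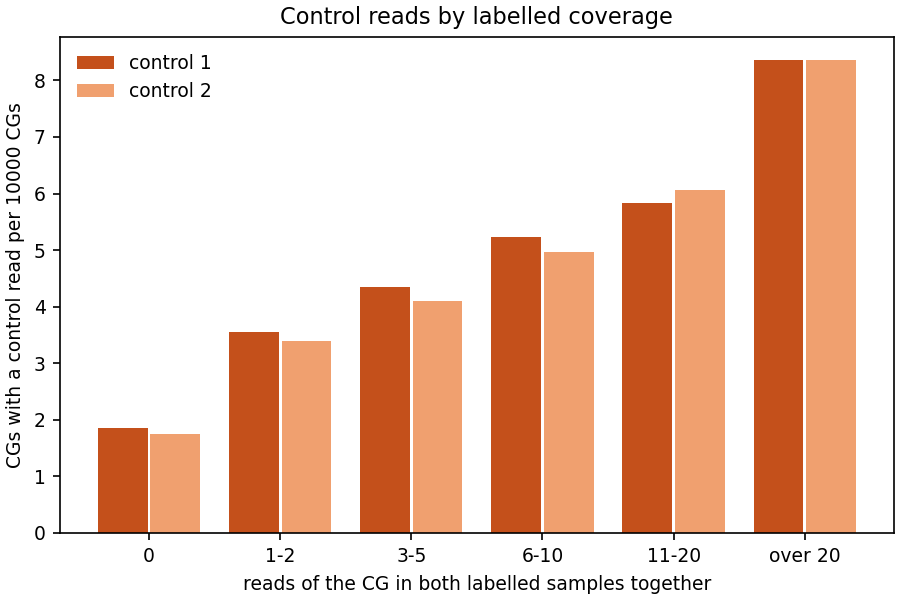
CGs with a read in each control per 10000 CGs, by the number of reads of the CG in both labelled samples together. Both controls rise from below 2 at CGs without a labelled read to 8.35 at CGs with over 20.

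Sequence that the reference marks as repeats or low complexity (soft-masked) took 12.9% of reads in both labelled samples and 17.2% (16.5 to 18) and 17% (16.2 to 17.7) in the controls, a ratio of 1.32, with 25.6% of CGs. The X chromosome took 1.06% and 1.07% of labelled reads and 1.25% (1.04 to 1.49) and 1.32% (1.09 to 1.57) of control reads, with 4.54% of CGs. The labelled value of the X chromosome lay inside the interval of control 1, and the X chromosome was low in both groups relative to its CGs.

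Motifs were searched in the 12 bases before the CG on either strand. They were CACAA, the longer ACACAA and CACACAA, of which each holds the shorter, and AAAAA. The letters of CACACAA were searched because the priming strand in the methods of the study ends in them. The motif CACACAA stood before 0.156% of all CGs, and such CGs took 0.109% and 0.110% of labelled reads and 2.04% (1.77 to 2.33) and 2.27% (1.98 to 2.59) of control reads, 205 and 212 reads. The ratio of control over labelled was 19.6 for CACACAA. The shorter ACACAA stood before 0.573% and CACAA before 2.06% of all CGs, and their ratios were 8.39 and 2.85. The longer the match, the larger was the share of the controls relative to the labelled samples. CGs with CACACAA count in the shares of the shorter motifs too, and the shorter motifs without the longer match were not compared. A match describes the letters beside the CG and does not show where a strand was started.

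AAAAA was also more frequent in the controls than in the labelled samples, with a ratio of 2.0, or 1.86 without the 2 loci described further on. It stood before 2.50% of all CGs, and such CGs took 0.652% and 0.707% of labelled reads and 1.33% (1.12 to 1.57) and 1.39% (1.16 to 1.65) of control reads, so that both groups were below the share of CGs. Counted as CGs with a read, CACACAA was at 2.0% and 2.03% in the 500-ng controls, at 4.74% and 5.82% in the 50-ng controls and at 2.34% and 2.65% in the 5-ng controls. All 6 controls were thus above the 0.156% of all CGs. The base directly before the CG was C at 26.7% of all CGs, at 31.1% and 30.9% of control CGs and at 42.8% and 42.5% of labelled CGs at control depth.

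In windows of 1 Mb the controls had few reads, with a median of 2 reads a window in each, against 8005 and 7939 in the labelled samples. Of 2578 windows, 1 (0.0388%) was higher in the controls and 0 (0%) were lower by edgeR at an adjusted p under 0.05. At an unadjusted p under 0.05, 119 were higher and 13 lower, DESeq2 called 123 and 23, and 287 windows had no control read. The count of higher windows was 32 without control 1 and 21 without control 2, and it was 0 with 5-Mb and 195 with 100-kb windows. The count thus depended on the size of the windows and on the samples, and the reason was not tested.

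The window was that of the chromosome 2 locus, with 3843 and 4293 labelled reads and 64 and 43 control reads, a log2 fold of 5.45 ± 0.37 (edgeR adjusted p 0.000278, higher in 2 of 2 controls). All its control reads lay between positions 98661350 and 98668325, at 20 CGs in control 1 and 15 in control 2 of the 86 CGs around the predicted genes Gm10801 and Gm10800. There the labelled samples had 2357 and 2704 reads, 0.00725% and 0.00847% of their reads, and the controls 0.635% (0.490 to 0.811) and 0.460% (0.333 to 0.619). The uTOP-seq samples had 0.00513%, 0.00592% and 0.00874% of their reads there, a level like that of the labelled samples. The controls of 50 ng had 20 and 15 reads there, 0.587% and 0.435%, and those of 5 ng 22 and 19 reads, 0.588% and 0.397%. The share of the locus was thus higher in all 6 controls than in the labelled samples of 500 ng. Without this locus and that on chromosome 17, no window was past the threshold.

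A locus on chromosome 17, between positions 39842001 and 39849480, holds 607 CGs, the GENCODE genes Gm26917, CT010467.1, Gm42418 and AY036118, and the ribosomal RNA related sequence Rn18s-rs5 of RefSeq. The labelled samples had 38176 and 36365 reads there, 0.117% and 0.114%, and the controls 37 and 50 reads, 0.367% (0.259 to 0.506) and 0.535% (0.397 to 0.705). The uTOP-seq samples had 0.320%, 0.351% and 0.333% of their reads there. The interval of control 1 held all 3 uTOP-seq values and that of control 2 lay above them, whereas at the chromosome 2 locus both controls lay above them. The controls of 50 ng had 7 and 9 reads in the chromosome 17 locus, 0.205% and 0.261%, and those of 5 ng 29 and 10 reads, 0.775% and 0.209%, so the controls varied. Both loci were defined after the data were seen, as runs of at least 4 CGs read in both controls with gaps of at most 10 kb. All such CGs of the chromosome 2 locus were soft-masked, and none of the chromosome 17 locus. The paper names copy number variation among the confounders of read counts, and the copy number of the loci was not tested.

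Among protein-coding genes with at least 1000 CGs, taken with 2 kb on each side, 3 of 2730 (0.11%) were higher in the controls and 0 (0%) lower by edgeR at an adjusted p under 0.05, but none of the 3 was past it with the replicate block, without labelled 1 or without labelled 2, and only Csgalnact1 was with at most 3 control reads per CG. At an unadjusted p under 0.05, 159 were higher and 80 lower, DESeq2 called 41 and 31, with only Csgalnact1 of the 3 among them, edgeR with TMM scaling called 2 and 7, and 871 genes had no control read. TMM lowers the median log2 fold of these genes from -0.46 to -1.21 and DESeq2 lowers it to -0.85. The median number of control reads a gene was 0 in both controls.

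Atrx, which encodes a chromatin remodeller, had 731 and 705 labelled reads and 10 and 0 control reads, a log2 fold of 4.53 ± 0.85 (edgeR adjusted p 0.000317, higher in 1 of 2 controls). All 10 reads lay at 1 CG of the 5′ UTR, where both labelled samples had 0 reads. The 0 reads of control 2 allow a share of up to 0.0395%, the upper end of the exact interval. Without control 1 the gene had no control read and a fitted log2 fold of -11.90, which is no bound. The value of Atrx thus rested on 1 CG in 1 sample.

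Csgalnact1, which encodes an enzyme of chondroitin sulfate synthesis, had 2467 and 2441 labelled reads and 8 and 5 control reads, a log2 fold of 3.14 ± 0.68 (edgeR adjusted p 0.00513, higher in 2 of 2 controls). Without labelled 1, labelled 2 or control 1 it was not past the threshold, at 3.12, 3.13 and 2.81, nor was it with TMM, at 2.38. Atp2b1, a calcium pump of the plasma membrane, had 1682 and 1688 labelled reads and 1 and 10 control reads, a log2 fold of 3.44 ± 0.76 (edgeR adjusted p 0.00513). Control 2 carried most of this difference, since the log2 fold of Atp2b1 was 0.92 without it. Without labelled 1 or labelled 2, Atp2b1 was not past the threshold either, at 3.45 and 3.48.

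Gene groups were summed to gain reads, with 2 kb on each side of each gene. All 21755 protein-coding genes together took 63.6% and 63.3% of labelled reads and 59.9% and 59.3% of control reads, a ratio of 0.939. The TMM scaling of the large genes multiplies the ratio of every group by the same factor, to 0.560 for all protein-coding genes, and DESeq2 does so to 0.629, so these scalings bear on the level of the ratios and not on the differences between groups. The 39 genes of the Hox clusters, which pattern the body axis, had 35315 and 34948 labelled reads, 0.109% in both samples, and 3 and 5 control reads, 0.0298% (0.00614 to 0.0870) and 0.0535% (0.0174 to 0.125). The ratio was 0.382, and the labelled share lay above the interval of control 1 and inside that of control 2. The 57 clustered protocadherins, adhesion molecules of neurons whose genes overlap, had 18262 and 17831 labelled reads, 0.0562% and 0.0559%, and 14 and 9 control reads, 0.139% (0.0760 to 0.233) and 0.0963% (0.0440 to 0.183). Their ratio was 2.10, and the labelled share lay below the interval of control 1 and inside that of control 2. In control 1 the intervals of the Hox and protocadherin clusters thus lay on opposite sides of the labelled share, and in control 2 both held it.

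The 1135 olfactory receptors had 33680 and 33811 labelled reads, 0.104% and 0.106%, and 16 and 15 control reads, 0.159% (0.0908 to 0.258) and 0.160% (0.0898 to 0.265). Their ratio was 1.52, or 0.909 with TMM, and the labelled shares lay inside the intervals of both controls, so no difference was detectable at this depth. The 394 Zfp genes, which encode zinc finger proteins, had 269939 and 263136 labelled reads and 77 and 58 control reads, a ratio of 0.837. Their labelled shares of 0.831% and 0.824% lay inside the interval of control 1, 0.604 to 0.955, and above that of control 2, 0.471 to 0.801. The 98 ribosomal protein genes had 38913 and 38312 labelled and 14 and 11 control reads, with a ratio of 1.07, or 0.638 with TMM and 0.718 with DESeq2, and labelled shares inside the intervals of both controls. The 110 keratins had 26086 and 25658 labelled and 5 and 10 control reads. The 329 vomeronasal receptors had 10004 and 9988 labelled and 2 and 5 control reads, and the 67 clustered histones 2802 and 2785 labelled and 1 and 0 control reads. For keratins, vomeronasal receptors and histones the ratio lay on different sides of 1 without control 1 and without control 2, so none was resolved.

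Both controls had a read at 56 CGs, of 12784 with a read in either control. Drawing the labelled samples to the depths of the controls gives 27.8 CGs expected in both. This comparison is at equal reads, and the controls covered fewer CGs. With all CGs equally likely to be covered, 1.93 shared CGs would be expected for the numbers of CGs that the controls covered. The 56 CGs were 29 times this number and the CGs outside the loci 21.8 times, and the 27.8 CGs of the labelled samples were 6.33 times the number expected for them in the same way. Of the 56, 10 lay in the chromosome 2 locus and 4 in the chromosome 17 locus, which were defined by such CGs. Outside the loci there were 42 against 27.4 expected from the labelled samples. The loci therefore held many but not most of the CGs that the controls shared. At 21 of the 56 both controls had at least 2 reads, and at 17 each had 1.

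The 56 CGs lay on 18 chromosomes, 14 in introns, 8 in coding exons, 19 over 50 kb and 11 at 2 to 50 kb from genes, 3 upstream and 1 downstream of genes, and 0 in UTRs. Outside the loci there were 13 in introns, 1 in coding exons, 15 over 50 kb and 11 at 2 to 50 kb from genes, while introns hold 39.6%, coding exons 4.80% and the latter 2 27.1% and 21.2% of all CGs. The coding exons were thus mostly those of the chromosome 2 locus. Soft-masked CGs numbered 19, or 33.9%, of which 9 lay outside the loci, 21.4% of the CGs there, against 25.6% of all CGs. Both labelled samples had a read at 44 of the 56, 1 had a read at 9 and neither at 3. Of all 21353092 CGs, both had a read at 4834527 and neither at 56.5%. At 11 of the 56 (19.6%) the uTOP-seq samples had no read, against 40.3% of all CGs. At 20 they had more than 20 reads, of which 6 lay outside the loci, while 1.99% of all CGs had as many. A control of another input had a read at 14, of which 10 lay outside the loci. Most CGs shared by the controls were thus also CGs with labelled reads, and the number of labelled reads varied widely among them.

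Of the 42 CGs outside the loci, 18 had CACAA in the 12 bases before them, 42.9%, against 2.06% of all CGs, and CACACAA stood before 12, 28.6%, against 0.156%. Of the 12 CGs outside the loci with at least 5 control reads, 7 had CACAA, with or without the longer match. None of the 14 CGs in the 2 loci had CACAA, and 3 of the chromosome 2 locus had AAAAA. The motif CACAA was thus found at scattered CGs and at none of those in the loci. These CGs were chosen by their control reads, so their motif counts are a description.

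The CG in the intron of Sirt2, a deacetylase gene, had the most control reads of any CG, 14 and 11, and 81 and 74 labelled reads, with 13 uCG reads. It was also read in controls of other inputs, with 0 and 1 reads at 50 ng and 2 and 4 at 5 ng. The CG near Cdc5l had 4 and 5 control reads and 25 and 28 labelled reads, that near Tbc1d1 2 and 6 control reads and 28 and 38 labelled reads, and that near Ppm1b 1 and 5 control reads and 7 and 11 labelled reads. The uCG reads of these CGs with CACACAA were 2 near Cdc5l, 3 near Tbc1d1 and 3 near Ppm1b. The median was 3 at the CGs of each control. Other CGs with CACACAA that both controls had read had from 0 to 16 uCG reads, the latter in Cyth3. Drd1, a dopamine receptor gene, had a CG with ACACAA in its coding exon, with 2 and 5 control reads, 2 and 7 labelled reads and 0 uCG reads.

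Among the CGs without CACAA, F11r, which encodes a junctional adhesion molecule, had 7 and 4 control reads and 34 and 27 labelled reads at 1 intronic CG. The CG far from Nr3c2 had 8 and 4 control reads and 69 and 54 labelled reads. The 9 CGs in or near Gm10800 had 50 and 35 control reads and 1253 and 1400 labelled reads together, and 1659 uCG reads. Gm10801 had 2 and 1 control reads and 110 and 107 labelled reads at 1 CG. The 10 CGs of the chromosome 2 locus thus had labelled reads as well, 30 to 314 each, and the 4 of the chromosome 17 locus had 258 to 742 uCG reads.

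**Figure D5:**
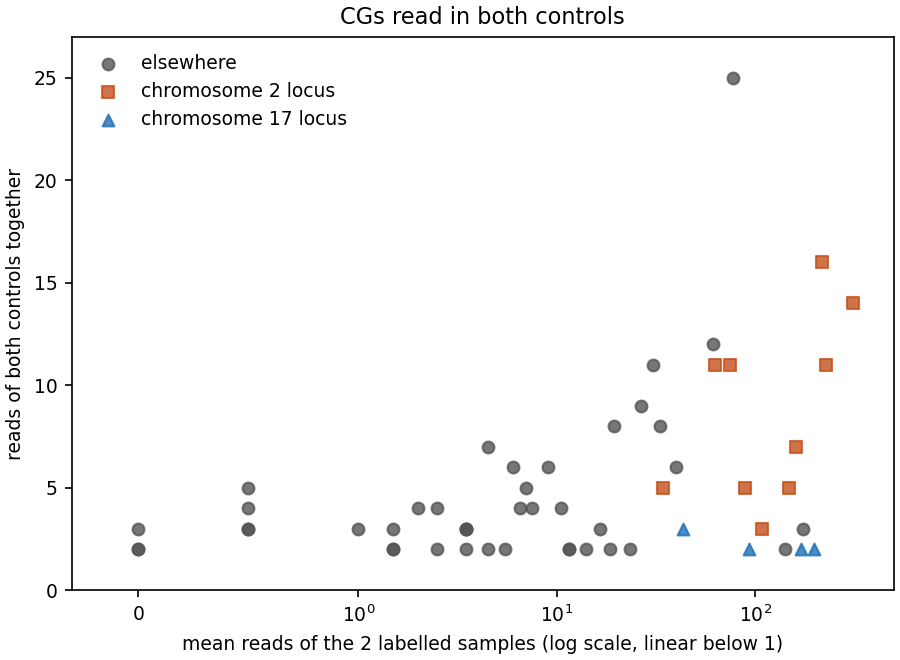
Reads of both controls together against the mean reads of the labelled samples (log scale, linear below 1) at the 56 CGs read in both controls; squares are the chromosome 2 locus and triangles the chromosome 17 locus. Sirt2 is the point at 25 control reads, and 3 CGs had no labelled read.

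The rule named 20 genes that hold or lie within 2 kb of a CG read in both controls, with 26 of the 56 CGs. Besides those given above, Camk1d, a protein kinase gene, had 3 and 2 control and 6 and 8 labelled reads, and the CG between Hsd17b14 and Bcat2 had 3 and 2 control reads and 0 and 1 labelled reads. Gata4, which encodes a transcription factor of heart and endoderm, had 3 and 1 control reads and 3 and 1 labelled reads. Pitpnm3 and AI467606 each had 2 and 2 control reads, with 1 and 0 labelled reads in the former and 5 and 0 in the latter. Gata4, Pitpnm3 and the CG between Hsd17b14 and Bcat2 thus had as many or more control reads than labelled reads. Nav1, Cyth3 and Phldb1 had 3 control reads each, and Cyth3 and Nav1 had CACACAA. Cmss1 and Filip1l, which overlap, Hydin, Sorcs3 and Trabd2b had 2 each, and the CG of Cmss1 and Filip1l had the most labelled reads of the genes with 2, at 150 and 133.

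Many reads at 1 CG did not always recur in the other control. An intronic CG of Heatr1 had 17 and 0 control reads and 1 and 0 labelled reads, one of Pdlim7 13 and 0 control reads and 1 and 0 labelled reads, and one of Lta4h 11 and 0 control reads and no labelled read. An intronic CG of Rph3a had 0 and 9 control reads and 2 and 3 labelled reads. Heatr1, Pdlim7, Lta4h and Rph3a were chosen after their values were seen. Of the CGs with 3 or more reads in control 1, 2.18% had a read in control 2, against 0.537% of those with 1 read, and the values from control 2 to control 1 were 2.28% and 0.680%. Recurrence was thus rare also at CGs with several control reads, and at Heatr1, Pdlim7 and Lta4h the control reads came without labelled reads beyond 1.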

How the data were processed

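The deposited values are read counts per CG, made by the authors from reads on mm10 (per the submitters' notes), with no normalization and replicates kept apart; hmTOP-seq counts merge both strands, and uTOP-seq counts of each strand were summed over strands and over 3 samples. All 21353092 CGs of the hmTOP-seq counts lay on a CG of GRCm38. Gene elements came from GENCODE M21 and soft-masking from RefSeq's GRCm38. Reads were summed over bins of at least 10000 CGs, windows of 1 Mb and genes with at least 1000 CGs each, and tested with edgeR 4.0.16 (quasi-likelihood, total-count scaling, Benjamini-Hochberg, threshold 0.05) in R 4.3.3, with DESeq2 1.42.0 as an alternative. Log2 folds are control over labelled. Other values came from Python 3.11.15 with numpy 2.4.6, pandas 2.3.3 and scipy 1.17.1; figures used matplotlib 3.10.9. The fits were tested on simulated data. Named genes were those in or within 2 kb of a CG read in both controls (up to 25), up to 10 genes each way past the threshold of the gene test, and gene groups by symbol. Members and lists were chosen with earlier results of these data known. The labelled samples of 50 and 5 ng were not compared with their controls here.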

Additional observations from a re-analysis of the deposited data

How the results depend on the processing

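Under TMM, DESeq2, the replicate block, at most 3 control reads per CG, no minimum of CGs and without the 2 loci (chosen after seeing the data), the counts of element by density and uCG by density bins stayed within 1.5 times their values, but of the 18 higher uCG bins 2 changed sign with TMM and 1 with DESeq2. With uCG reads only at CGs read in all 3 uTOP-seq samples, 9 of 29 uCG bins were higher in place of 18 of 35. Leaving out 1 sample gave 13 to 14 higher and 11 to 15 lower element bins and 15 to 16 higher and 10 to 14 lower uCG bins; a lone sample is then assumed to vary like the other group.

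In the fit with the replicate block, 15 element bins were higher and 13 lower, 17 uCG bins higher and 14 lower, 1 window higher and 0 lower, and 0 large genes higher and 0 lower. The replicates share only a number: the differences between replicates 1 and 2 of labelled and control samples had a correlation of -0.00156 over 2578 windows, and nothing is crossed between them.

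Counts of windows and large genes moved most. Higher windows numbered 2 with TMM, 123 with DESeq2, 0 without the 2 loci, 0 with 5-Mb and 195 with 100-kb windows, and 1 to 32 leaving out 1 sample; DESeq2 had 23 lower. Higher large genes numbered 41 with DESeq2, 0 with the replicate block, 1 with at most 3 control reads per CG, 102 with no minimum, 0 at 3000 CGs or more and 0 to 18 leaving out 1 sample; lower ones 7 with TMM, 31 with DESeq2, 1 with no minimum and 0 to 2 leaving out 1 sample. The chromosome 2 window went from a log2 fold of 5.45 to -12.59 without the 2 loci and Atrx to -11.90 without control 1, since no control read was left in either (Atrx had 5.48 without control 2); such a fitted fold is no bound.

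Counting CGs instead of reads, the ratio of control over labelled was 0.680 in coding exons, 2.10 at 25 or more neighbours and 0.780 at 6-10 uCG reads. With at most 3 control reads per CG, soft-masked sequence had 1.31. Without the 2 loci, the ratio was 1.0 in introns (from 0.995, now on the other side of 1), 0.675 in coding exons, 0.782 at 6-10 and 0.447 at over 20 uCG reads, 1.29 in soft-masked sequence and 1.86 for AAAAA. CGs with at least 2 reads in both controls numbered 21. Where no reason is given, the cause was not tested. The alternatives for the motif shares and for the gene groups were also chosen after seeing the data.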
